A study of Arabidopsis thaliana with 12 samples.

Results

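Glutathione transferases of the tau class were followed in root tips of Arabidopsis thaliana through 9 genes given by locus code. They are GSTU1 (AT2G29490), GSTU4 (AT2G29460), GSTU7 (AT2G29420), GSTU8 (AT3G09270), GSTU19 (AT1G78380), GSTU20 (AT1G78370), GSTU22 (AT1G78340), GSTU24 (AT1G17170) and GSTU25 (AT1G17180). They are 9 of the 28 genes of the class and of 37138 loci with summed reads. The rule names them by locus code, but they were chosen with earlier results of these data known. Counts and medians of the 9 set beside those of all genes are therefore descriptions. All 9 passed the filter on low counts, which kept 21561 genes. RNA-seq covered 4 groups of 3 libraries, labelled as biological replicates. They were wild-type Col-0 on control medium, Col-0 after 24 h on 0.5 µg/ml bleomycin, and the scl5 scl21 pat1 triple mutant in each of these conditions. Bleomycin is a glycopeptide drug that breaks DNA strands, and SCL5, SCL21 and PAT1 encode transcriptional regulators of the GRAS family. About 100 seeds were sown per sample, seedlings were moved to their medium at 7 days after sowing, and the last 0.2 cm of the roots was collected. The alleles and the number of plants behind each RNA sample are not stated by any source used here. Each library is therefore the average of a mixed tissue, in which fewer cells of a type and less RNA per cell cannot be told apart.

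Glutathione transferases join the tripeptide glutathione to reactive or foreign molecules, and the conjugates are carried into the vacuole by transporters of the ABCC family. The tau class is found in plants, is encoded by arrays of neighbouring duplicates, and is known for the detoxification of herbicides and other xenobiotics. Many of its genes are induced by chemical stress. The bZIP factors TGA2, TGA5 and TGA6, which bind the core TGACG, act in this response in Arabidopsis together with SCL14, another GRAS protein.

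The libraries held 36.3 to 40.9 M reads. The limit that a count of 0 allows, 3 reads in a library, corresponded to 0.0734 to 0.0827 reads per M reads, without TMM scaling. Levels in CPM are reads per M reads of the library after TMM scaling. The mutated genes follow the labels: SCL21 had 0 reads and SCL5 at most 2 reads in each triple mutant library, against 380 or more in each Col-0 library. PAT1 kept 9.34, 9.53 and 9.73 CPM in the triple mutant on control medium, against 26.1, 26.0 and 25.5 CPM in Col-0. All 7 root meristem markers had reads in every library labelled root tip. Triple mutant control 3 stood apart from the other 11 libraries: 381 genes that had 10 or more reads in every other library were at 0 there, against at most 35 in any other library. The fitted changes of the 9 genes that use it are given with and without it.

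All 9 genes have 2 exons in the RefSeq annotation of TAIR10.1, and 8 of them lie in arrays. GSTU24 (chr1:5869543-5870883) and GSTU25 (chr1:5872024-5873124) are neighbours on the plus strand of chromosome 1, followed by GSTU26. GSTU22 (chr1:29472845-29474003), GSTU20 (chr1:29484120-29485389) and GSTU19 (chr1:29486387-29488007) lie on the minus strand of the same chromosome, among GSTU23 and GSTU21. GSTU7 (chr2:12617936-12618899), GSTU4 (chr2:12626478-12627891) and GSTU1 (chr2:12631341-12632538) belong to a minus-strand array on chromosome 2 that also holds GSTU6, GSTU5, GSTU3 and GSTU2. GSTU8 (chr3:2848183-2849686, minus strand) lies on chromosome 3 outside these arrays. Each of the 8 genes in arrays was closest in coding sequence to a member of its own array: identity was 83.9% between GSTU1 and GSTU4, 79.5% between GSTU24 and GSTU25 and 78.2% between GSTU19 and GSTU22. The count tables carry no coordinates and no build is named for them. The transcript lengths in these tables had a RefSeq transcript of the same length for all 9 genes.

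The first 250 bases before the annotated start of each gene were searched for TGACG on both strands, where it reads CGTCA on the minus strand. A match was found in 5 of the 9 promoters, which are shown because they are the ones that hold the core bound by TGA factors. By comparison 6 of the other 19 tau promoters and 18.6% of 27443 protein-coding promoters of the same length held one. GSTU1 and GSTU7 held 2 or more, as did 3.2% of all promoters. The motif CTTNNNNNNNAAG, also searched on both strands, occurred among the 9 in GSTU20 alone, and in 9.7% of all promoters. Sequences are from RefSeq (TAIR10.1), read 5′ to 3′ on the strand of the gene and ending at the base before the start, with each TGACG or CGTCA in capitals. They cover chr1:5871774-5872023 (plus strand) for GSTU25, chr1:29474004-29474253 (minus strand) for GSTU22, and chr1:5869293-5869542 (plus strand) for GSTU24. They cover chr2:12632539-12632788 (minus strand) for GSTU1 and chr2:12618900-12619149 (minus strand) for GSTU7.
GSTU25: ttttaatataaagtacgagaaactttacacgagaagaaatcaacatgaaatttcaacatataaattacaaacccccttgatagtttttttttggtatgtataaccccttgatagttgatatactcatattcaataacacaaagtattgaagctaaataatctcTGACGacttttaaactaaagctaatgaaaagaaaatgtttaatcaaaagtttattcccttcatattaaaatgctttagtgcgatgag
GSTU22: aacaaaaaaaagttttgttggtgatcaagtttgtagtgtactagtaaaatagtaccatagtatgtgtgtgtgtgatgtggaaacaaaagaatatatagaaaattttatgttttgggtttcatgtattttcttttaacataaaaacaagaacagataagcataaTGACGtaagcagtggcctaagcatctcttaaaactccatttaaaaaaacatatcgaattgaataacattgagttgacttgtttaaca
GSTU24: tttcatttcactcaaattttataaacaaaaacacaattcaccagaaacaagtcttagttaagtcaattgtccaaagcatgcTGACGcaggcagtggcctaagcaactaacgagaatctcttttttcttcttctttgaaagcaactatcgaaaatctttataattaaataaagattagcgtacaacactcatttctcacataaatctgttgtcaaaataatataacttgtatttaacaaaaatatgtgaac
GSTU1: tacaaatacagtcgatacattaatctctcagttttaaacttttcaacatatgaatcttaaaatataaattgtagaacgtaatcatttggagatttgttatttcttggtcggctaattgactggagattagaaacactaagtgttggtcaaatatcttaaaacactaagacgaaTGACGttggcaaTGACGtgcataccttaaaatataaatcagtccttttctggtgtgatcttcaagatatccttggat
GSTU7: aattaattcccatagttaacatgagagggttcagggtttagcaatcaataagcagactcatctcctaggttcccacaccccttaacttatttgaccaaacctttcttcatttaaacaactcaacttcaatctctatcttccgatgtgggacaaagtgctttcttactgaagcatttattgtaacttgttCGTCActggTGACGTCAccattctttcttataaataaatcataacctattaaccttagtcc
The match lay at -87 from the start in both GSTU25 and GSTU22. In GSTU24 it lay at -169, and in GSTU1 at -77 and -65. GSTU7 held 3 matches, of which those at -52 and -49 overlap on opposite strands and the other lies at -61. GSTU22 and GSTU24, which lie in different arrays, also shared a run of 15 bases just after the match, gcagtggcctaagca. It occurs in 2 of the 27443 promoters, which are those of GSTU22 and GSTU24 themselves. The run is the longest shared by a pair among the 9 promoters, and it was noticed after the sequences were seen. The next longest run shared by a pair among the 9 promoters was 11 bases. A match is a description of the letters in this window and not a binding site.

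On control medium the 9 genes covered a wide range of levels, with GSTU19 far above the rest. Levels between genes are compared as CPM per kilobase of effective transcript length. In Col-0 control GSTU19, an enzyme with high conjugating activity towards herbicides and model substrates, stood at 1807 ± 225 (SD, n = 3), rank 24 among 21561 genes. GSTU25 followed at 629 ± 180 and GSTU24 at 328 ± 116; both encode enzymes known to conjugate the explosive trinitrotoluene. The first 3 genes did not overlap with the next in order. GSTU7 at 189 ± 28.3, GSTU22 at 154 ± 37.3, GSTU1 at 129 ± 13.5 and GSTU8 at 117 ± 12.5 came next, and neighbours in the order among these 4 overlapped. GSTU4 at 3.67 ± 0.51 and GSTU20 at 0.81 ± 0.11 were low. The triple mutant on control medium had the same first 5 genes in the same order, with GSTU19 at 2049 ± 157 and GSTU25 at 741 ± 10.2.

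After bleomycin 4 of the 9 genes rose in Col-0 and none fell: GSTU25, GSTU22, GSTU8 and GSTU1. The background for this count is that 4.29% of the 21561 genes tested rose and 2.46% fell, by edgeR's quasi-likelihood test at an adjusted p under 0.05. The largest of these changes, in GSTU25 and GSTU22, were over 2-fold, and the median log2 fold change of the 9 was 0.58, against 0.01 over all genes. Levels of a gene across libraries are given as CPM.

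GSTU25 stood at 622, 349 and 462 CPM in Col-0 control and at 1263, 932 and 1459.6 CPM after bleomycin. All 3 treated libraries lay above all 3 controls. The gene rose 2.55-fold (log2 fold change 1.35, SE 0.19, edgeR's quasi-likelihood adjusted p = 0.00177). GSTU22, from the array on the other arm, was at 158, 99.8 and 115 CPM in control and at 314, 256 and 304 CPM after bleomycin. Its groups did not overlap either, and its change was 2.34-fold (1.23, SE 0.16, edgeR adjusted p = 0.000699). Both were called under all 22 alternatives tried, with adjusted p up to 0.0236 for GSTU25 and 0.0131 for GSTU22.

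GSTU8 and GSTU1 rose by less. GSTU8, the member on chromosome 3, was at 141, 114 and 133 CPM in Col-0 control and at 219, 185 and 216 CPM after bleomycin, a change of 1.60-fold (log2 0.68, SE 0.14, edgeR adjusted p = 0.0134). GSTU1 was at 123, 104 and 102 CPM in control and at 147, 135 and 157 CPM after bleomycin, a change of 1.34-fold (log2 0.42, SE 0.10, edgeR adjusted p = 0.033). Neither gene's groups overlapped. The call of GSTU8 was lost when control replicate 2 (adjusted p = 0.0836) or control replicate 3 (0.0525) of Col-0 was left out; over all alternatives its adjusted p ran from 0.00011 to 0.0836. That of GSTU1 was lost when the same replicates (0.156 and 0.15), bleomycin replicate 1 (0.0952) or bleomycin replicate 3 (0.0937) of Col-0, or control replicate 2 of the triple mutant (0.052) was left out. It was also lost in a fit of the Col-0 libraries alone (0.0812), and its adjusted p ran from 0.00127 to 0.156. Without control replicate 2 or control replicate 3 of Col-0, 2 of the 9 genes were called, and without Col-0 control 1 there were 5. The count over all genes moved too, from 1455 with all libraries to 356 without Col-0 control 2 and 2081 without Col-0 control 1.

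The other 5 genes were not called in Col-0. GSTU24, next to GSTU25 on the chromosome, was at 433, 226 and 269.7 CPM in control and at 547, 329.5 and 511 CPM after bleomycin. Col-0 control 1 lay above the lowest treated library, and the log2 fold change was 0.58 (SE 0.23, edgeR adjusted p = 0.144). Without Col-0 control 1 the gene was called (adjusted p = 0.0186). It was also called in an edgeR fit with a term for replicate number, the replicate block (0.0166). GSTU7, which is known to be induced by salicylic acid, was at 137, 101 and 119 CPM in control and at 185, 132 and 188 CPM after bleomycin. Its groups overlapped (log2 0.50, SE 0.17, edgeR adjusted p = 0.0955), and it was called by DESeq2 (0.0359) and with the replicate block (0.00425). GSTU7 overlaps on the opposite strand with the natural antisense transcript AT2G08340, which stood at 12.3 to 29.1 CPM, and 61.1% of its 31-base words are shared with other transcripts. In the other 8 genes at most 2.53% are shared. The strand setting of the counting is not stated, so reads of the pair cannot be told apart.

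GSTU19, the most abundant member, was at 1779, 1406 and 1494 CPM in Col-0 control and at 1924, 1506 and 2223 CPM after bleomycin. The groups overlapped, and the log2 fold change of 0.27 (SE 0.15) had an edgeR adjusted p of 0.273. GSTU4 was at 3.73, 3.55 and 2.85 CPM in control and at 5.03, 6.86 and 7.62 CPM after bleomycin. These groups did not overlap, but the log2 fold change of 0.94 had an SE of 0.40 and an edgeR adjusted p of 0.165. GSTU20, whose protein is known to bind the jasmonate-conjugating enzyme JAR1, was at 0.61, 0.78 and 0.78 CPM in control and at 0.55, 0.81 and 0.08 CPM after bleomycin (log2 -0.59, SE 1.09, edgeR adjusted p = 0.796). It held 0 to 59 reads in a library, and 22, 32 and 3 in those of Col-0 after bleomycin. In all, 5 of the 9 genes had no overlap between Col-0 control and bleomycin with the treated libraries higher, against 15.3% of all genes.

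**Figure D1:**
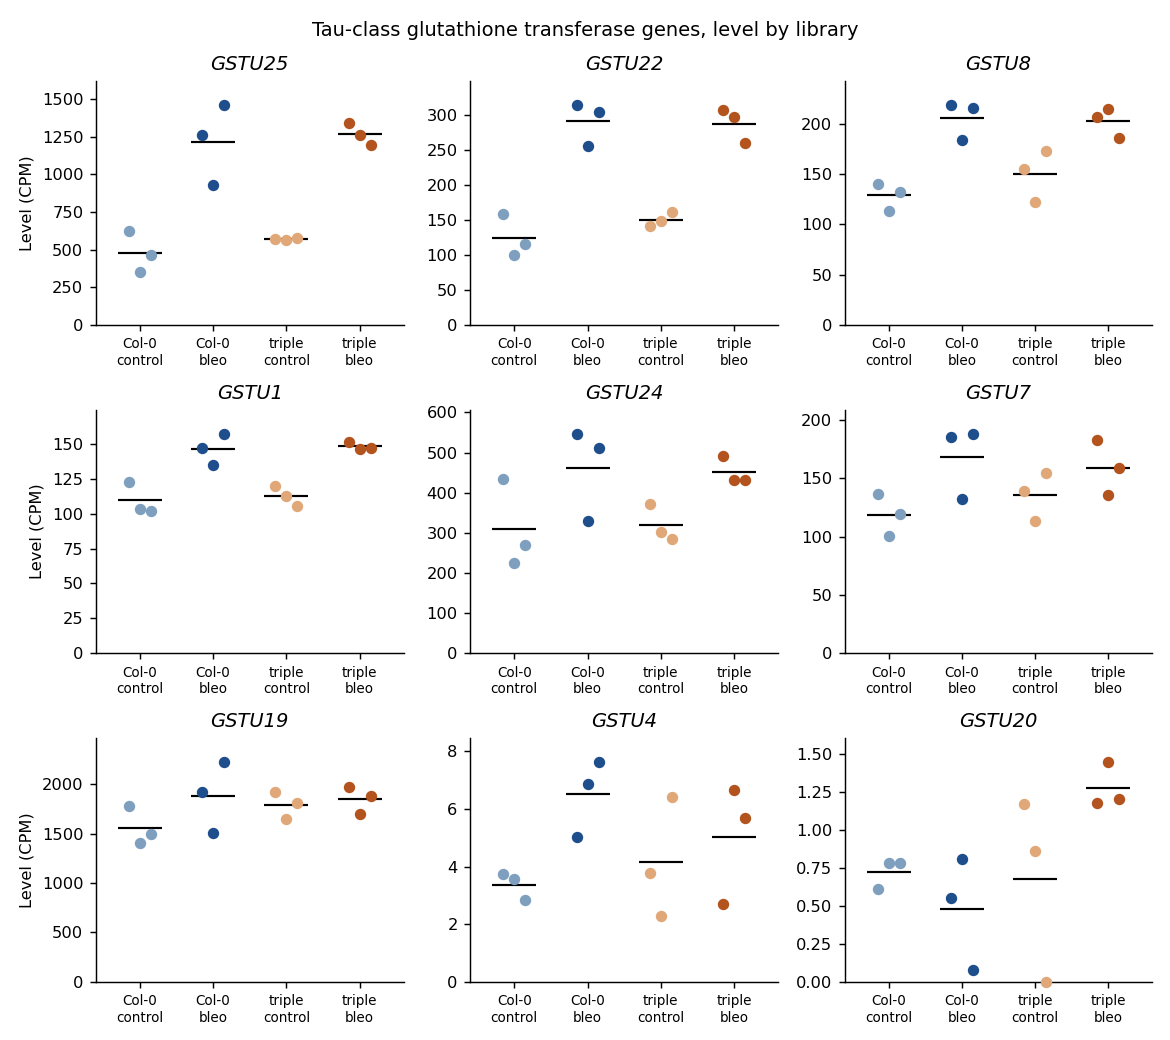
Level of each of the 9 genes in CPM (y axis, linear, from 0, a scale of its own for each gene) in the 3 libraries of each of 4 groups; points are libraries and lines are group means. GSTU25 and GSTU22 each have their own highest values in the 6 bleomycin libraries, while GSTU19 overlaps between groups and GSTU20 stays under 2 CPM.

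In the triple mutant 3 of the 9 genes rose after bleomycin and none fell: GSTU25, GSTU22 and GSTU1. Of all genes tested 4.20% rose and 3.81% fell in this comparison. The median log2 fold change of the 9 was 0.43, against 0.03 over all genes. GSTU25 was at 573, 561 and 579.6 CPM in triple mutant control and at 1342, 1265 and 1197 CPM after bleomycin, a change of 2.22-fold (log2 1.15, SE 0.19, edgeR adjusted p = 0.00513). GSTU22 was at 141, 148 and 161 CPM in control and at 307, 297 and 259.5 CPM after bleomycin, a change of 1.92-fold (log2 0.94, SE 0.15, edgeR adjusted p = 0.0049). The control libraries of GSTU25 lay close together, and for both genes every treated library lay well above every control. Both stayed called under all 22 alternatives, with adjusted p up to 0.03 for GSTU25 and 0.0276 for GSTU22, and without triple mutant control 3 at 0.0222 (log2 1.15) and 0.0159 (log2 0.99).

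GSTU1 was at 120.1, 113 and 105 CPM in triple mutant control and at 151, 146 and 147 CPM after bleomycin, a change of 1.31-fold (log2 0.39, SE 0.10, edgeR adjusted p = 0.0373). The groups did not overlap, but the call was lost without any 1 of the 3 triple mutant controls (adjusted p of 0.0547, 0.113 and 0.122 for replicates 1, 2 and 3; log2 0.34 without replicate 3). It was also lost without any 1 of the 3 triple mutant bleomycin libraries (0.128, 0.0894 and 0.0706), without control replicate 2 of Col-0 (0.0594), without the filter (0.055) and in a fit of the triple mutant alone (0.0587); its adjusted p ran from 0.00287 to 0.128. GSTU8 was at 155, 122 and 173 CPM in triple mutant control and at 207, 215 and 186 CPM after bleomycin. Its groups did not overlap, yet it missed the threshold (log2 0.43, SE 0.14, edgeR adjusted p = 0.0697). Without triple mutant control 3 it had a log2 of 0.54 and an edgeR adjusted p of 0.0589. With all libraries DESeq2 called it (0.0254), as did edgeR with the replicate block (0.0183).

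GSTU24 was at 371, 302 and 284 CPM in triple mutant control and at 490.5, 432 and 430.4 CPM after bleomycin. Here too the groups did not overlap while the test was not passed (log2 0.50, SE 0.23, edgeR adjusted p = 0.197). With the replicate block GSTU24 was called (0.0344). GSTU7 was at 139, 113 and 155 CPM and then at 183, 136 and 159 CPM, with overlapping groups (log2 0.23, SE 0.17, edgeR adjusted p = 0.429). GSTU19 was at 1925, 1647 and 1807 CPM and then at 1971, 1705 and 1880.1 CPM, also with overlapping groups (log2 0.05, SE 0.15, edgeR adjusted p = 0.873). GSTU4 was at 3.77, 2.29 and 6.41 CPM and then at 2.72, 6.67 and 5.70 CPM, with overlapping groups (log2 0.27, SE 0.39, edgeR adjusted p = 0.707). GSTU20 was at 1.17, 0.86 and 0 CPM and then at 1.18, 1.45 and 1.2 CPM, and the value of 0 is that of triple mutant control 3 (log2 0.92, SE 1.08, edgeR adjusted p = 0.639). When triple mutant control 3 was left out, the log2 fold change was 0.72 for GSTU4, against 0.27 with it, and the adjusted p was 0.304. It was then 0.41 for GSTU24 (0.399), 0.33 for GSTU7 (0.347), 0.04 for GSTU19 (0.918) and 0.32 for GSTU20 (0.845). Treated libraries lay above all controls in 6 of the 9 genes, against 15.4% of all genes.

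**Figure D2:**
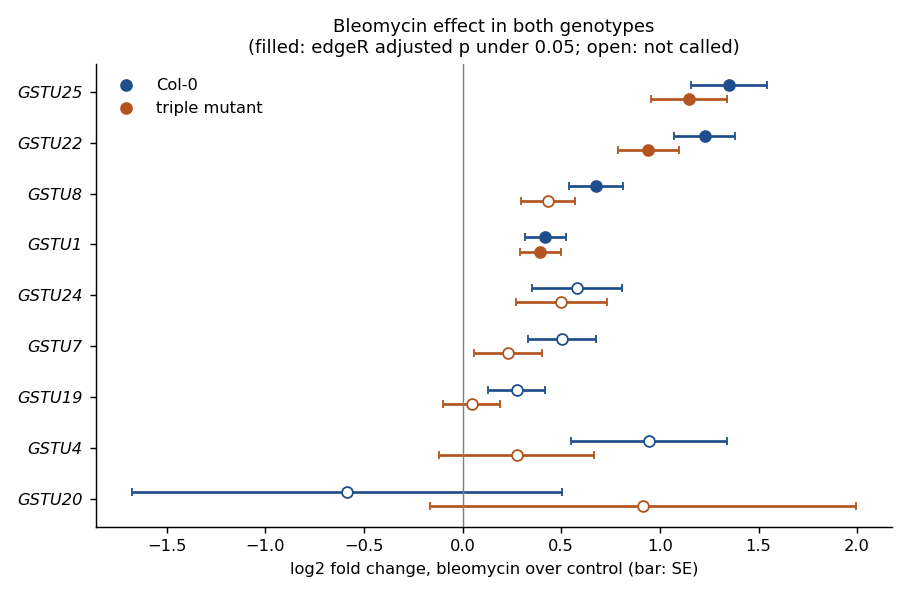
Log2 fold change of bleomycin over control (x axis) with its SE for the 9 genes (y axis) in Col-0 and in the triple mutant, from edgeR; filled points have an adjusted p under 0.05. GSTU25 and GSTU22 lie near 1 or above in both genotypes, and GSTU20 has the widest bars.

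The triple mutant was not called different from Col-0 at any of the 9 genes, on either medium. The background here was 0.0278% of all genes called on control medium and 0.0278% after bleomycin, 6 genes each. On control medium 8 of the 9 genes had a log2 fold change above 0, from 0.04 for GSTU1 to 0.30 for GSTU4, with a median of 0.20 against -0.01 over all genes. Without triple mutant control 3 GSTU4 stood at -0.15 and GSTU20 at 0.49, the other 7 lay between 0.09 and 0.25, and the median was 0.12. With all libraries 15 of the 17 other tau genes tested were above 0 as well, with a median of 0.22. None of the 9 had an unadjusted p under 0.05 in this comparison by edgeR, against 1034 of all 21561 genes. None of the 9 was called by DESeq2 or limma. GSTU25 was 0.26 higher on the log2 scale in triple mutant control than in Col-0 control (SE 0.19), and GSTU22 0.27 higher (SE 0.15). For both genes the Col-0 range enclosed or overlapped that of the triple mutant. After bleomycin the levels lay close: the log2 fold change was 0.06 for GSTU25, -0.02 for GSTU22 and -0.03 for GSTU8, with a median of -0.03 over the 9. GSTU20 differed most (1.40, SE 1.10), on 3 to 59 reads a library. Its 3 triple mutant libraries lay above its 3 Col-0 libraries after bleomycin, as in 2.39% of all genes, but its edgeR adjusted p was 1.

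The difference between the genotypes in the bleomycin effect was tested as an interaction, and it was called for none of the 9 genes and for 0% of all genes. The same count of 0 came from DESeq2 and limma, and 377 of the 21561 genes had an unadjusted p under 0.05, with none of the 9 among them. The effect in the triple mutant minus that in Col-0 was below 0 for 8 of the 9 genes, with a median of -0.23 against -0.00294 over all genes. Of the 17 other tau genes tested 13 were below 0 as well, with a median of -0.32. The difference was -0.20 for GSTU25 (SE 0.27), -0.29 for GSTU22 (SE 0.22), -0.24 for GSTU8 (SE 0.19) and -0.03 for GSTU1 (SE 0.15). Without triple mutant control 3 it was -0.20, -0.24, -0.13 and -0.08 for these 4 genes. It then lay between -0.24 and -0.08 for the same 8 genes and at 0.91 for GSTU20, with a median of -0.17. The interaction and the genotype comparison on control medium share the control libraries. The 8 values from all libraries lay within 2 SE of 0. The genes GSTU8 and GSTU1, called in Col-0 or in both genotypes, are thus not shown to respond differently in the triple mutant.

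Summed over the 9 genes, the level in Col-0 went from 3396, 2403 and 2699 CPM on control medium to 4604, 3483 and 5066 CPM after bleomycin, or from 0.286% to 0.439% of all reads. The triple mutant went from 3428, 3010.2 and 3271 to 4655, 4203 and 4266 CPM. The ratio of means was 1.55 in Col-0 and 1.35 in the triple mutant from CPM, and 1.64 and 1.47 from the TPM values. In Col-0 the summed TPM overlapped between control medium (2754 to 4260) and bleomycin (4036 to 6633), while in the triple mutant it did not. The 9 genes made up 83.9% to 90.3% of the summed CPM of the whole tau class in each library. The makeup shifted from GSTU19 towards GSTU25. Of the summed CPM, GSTU19 held 52.4% to 58.5% in the 6 control libraries and 40.6% to 44.1% in the 6 bleomycin libraries. GSTU25 held 14.5% to 18.7% in the controls and 26.8% to 30.1% after bleomycin. Ratios of levels within a library do not depend on the scaling between libraries. Per length, the ratio of GSTU25 to GSTU19 was 0.344 ± 0.058 in Col-0 control and 0.732 ± 0.025 after bleomycin, and 0.363 ± 0.024 and 0.779 ± 0.059 in the triple mutant (SD, n = 3). The ratio of GSTU25 to its neighbour GSTU24 went from 1.95 ± 0.17 to 3.31 ± 0.38 in Col-0 and from 2.25 ± 0.31 to 3.49 ± 0.12 in the triple mutant. None of the ranges of these shares and ratios overlapped between media. In rank by level per length GSTU25 moved from 216 to 19 of 21561 genes in Col-0 and from 192 to 20 in the triple mutant. GSTU19 moved from 24 to 7 and from 21 to 7, though its level was not called different in either genotype.

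**Figure D3:**
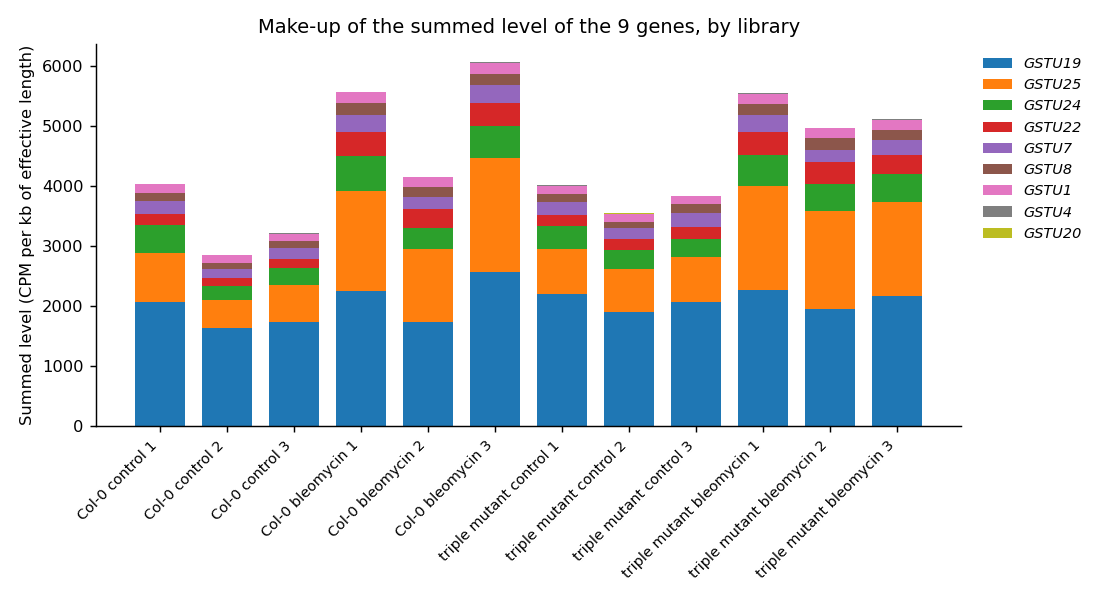
Summed level of the 9 genes in each of the 12 libraries (bars, CPM per kilobase of effective length, from 0), split by gene. GSTU19 and GSTU25 make up most of each bar, and the GSTU25 portion is larger in all 6 bleomycin libraries than in the 6 controls.

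Neighbours in an array stood at different levels, and differences in response between neighbours were not tested. GSTU26, next to GSTU25, had 161 ± 25.2 CPM on control medium in Col-0 and 154 ± 22.8 CPM with bleomycin (log2 -0.06, SE 0.20, edgeR adjusted p = 0.885). In the array of GSTU22, its neighbours GSTU23 and GSTU21 stayed at or under 1.14 CPM on group average. Of the other 19 tau genes 17 could be tested, and 2 of them rose in Col-0, with a median log2 fold change of 0.30. Over all genes 4.29% rose in Col-0, with a median of 0.01. GSTU17, known for roles in drought and light responses, went from 3.12 ± 1.54 to 11.1 ± 3.07 CPM (1.82, SE 0.41, edgeR adjusted p = 0.0218). Its call was lost when control replicate 2 (0.0746), control replicate 3 (0.0525) or bleomycin replicate 1 (0.0811) of Col-0 was left out, and in a fit of the Col-0 libraries alone (0.0521). GSTU5, in the chromosome 2 array, went from 6.56 ± 0.90 to 14.2 ± 4.35 CPM (1.12, SE 0.28, edgeR adjusted p = 0.0322). Its call was lost when any 1 of the Col-0 controls (0.0629, 0.108 and 0.0923 for replicates 1 to 3) or bleomycin replicate 2 (0.0803) or 3 (0.0887) was left out, by limma (0.0513) and in a fit of the Col-0 libraries alone (0.0521). None of the 17 was called in the triple mutant by edgeR, DESeq2 or limma, with a median of 0.16. Over all genes 4.20% rose there by edgeR, with a median of 0.03. Of the 17, GSTU17 was the 1 gene with an unadjusted p under 0.05 by edgeR, while 5403 of all 21561 genes had one. GSTU17 was at 4.58 ± 1.76 and 8.80 ± 2.03 CPM there, and GSTU5 at 11.3 ± 3.68 and 12.6 ± 2.60 CPM.

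**Figure D4:**
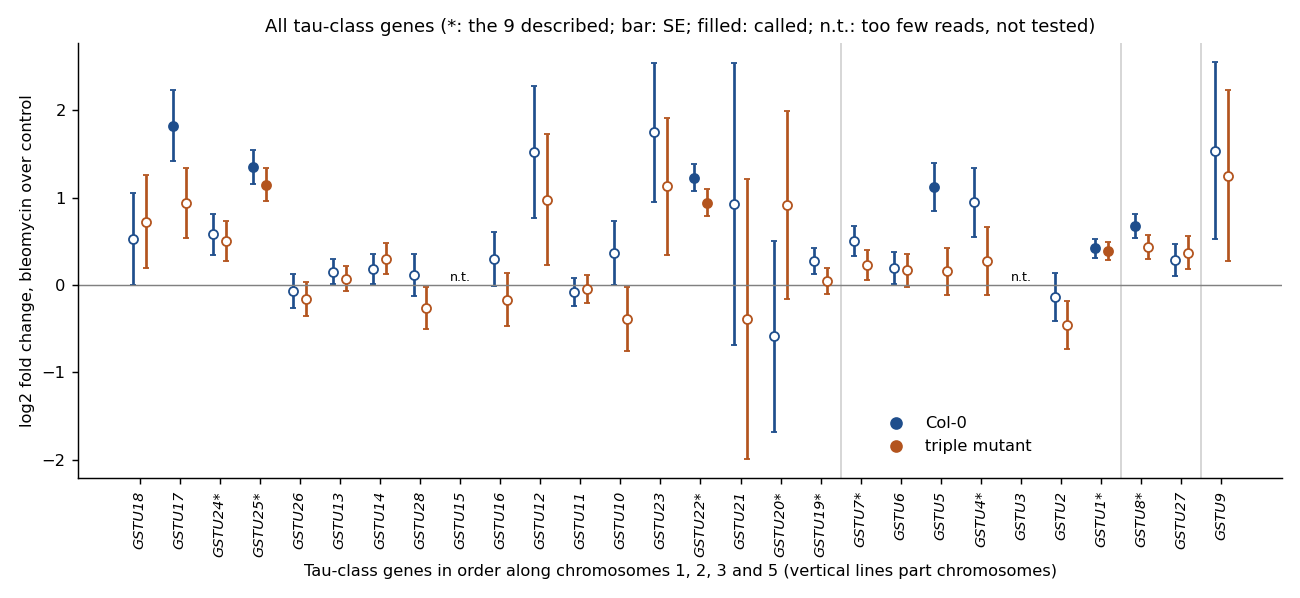
Log2 fold change of bleomycin over control with its SE (y axis) for all 28 tau-class genes in order along the chromosomes (x axis), in Col-0 and in the triple mutant; filled points are called and asterisks mark the 9 genes. Called genes sit beside uncalled ones in each array, as GSTU25 beside GSTU24 and GSTU26.

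Of 25 genes in the other classes of glutathione transferases 21 could be tested. In Col-0 2 rose and 2 fell after bleomycin, with a median log2 fold change of 0.47. Over all genes 4.29% rose and 2.46% fell in Col-0, with a median of 0.01. GSTF6, which acts in camalexin synthesis, went from 4.81 ± 2.91 to 20.1 ± 5.34 CPM (2.06, SE 0.42, edgeR adjusted p = 0.0132), and its call was lost when control replicate 2 (0.0712) or control replicate 3 (0.0721) of Col-0 was left out. GSTF7, a close copy of GSTF6 whose shared reads are split by estimation, went from 4.0 ± 2.71 to 13.4 ± 2.38 CPM (1.74, SE 0.46, edgeR adjusted p = 0.0409). Its call was lost without any 1 of the Col-0 libraries other than control 1 (up to 0.171), and without triple mutant control 2 (0.0597) or triple mutant bleomycin 1 (0.0525), and in a fit of the Col-0 libraries alone (0.0594). GSTF9, an abundant gene of the phi class, fell from 403 ± 13.9 to 268 ± 27.5 CPM in Col-0 (-0.59, edgeR adjusted p = 0.0141). It fell from 452 ± 20.8 to 263 ± 38.8 CPM in the triple mutant (-0.78, edgeR adjusted p = 0.00333). GSTF13 fell in both genotypes, in the triple mutant from 8.56 ± 3.47 to 1.95 ± 0.72 CPM (-2.13, SE 0.44, edgeR adjusted p = 0.0142). GSTF9 in Col-0 lost its call when control replicate 2 (0.065), control replicate 3 (0.0649) or bleomycin replicate 1 (0.0515) was left out, and GSTF13 in the triple mutant without bleomycin replicate 1 (0.0598). No gene of these classes rose in the triple mutant by edgeR or limma, with a median of 0.22. Of the higher ones 4 had an unadjusted p under 0.05 by edgeR. Of all 21561 genes 5403 had one there, in either direction. Over all genes 4.20% rose and 3.81% fell in the triple mutant, with a median of 0.03. DESeq2 called 8 genes higher in Col-0 and 2 in the triple mutant. In both genotypes it also called more of all genes than edgeR, with the counts given at the end of the text.

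Of 16 genes of glutathione synthesis, sulfate assimilation and conjugate transport, 4 rose in Col-0 and none fell, with a median log2 fold change of 0.33. Over all genes 4.29% rose and 2.46% fell in Col-0, with a median of 0.01. The 4 were the vacuolar conjugate transporter ABCC2 (0.48, edgeR adjusted p = 0.0368), its relative ABCC3 (0.62, 0.0309), and the sulfate-assimilating reductases APR2 (0.46, 0.0473) and APR3 (0.42, 0.0429). All 4 calls were lost without control replicate 2 of Col-0 (adjusted p of 0.177, 0.152, 0.14 and 0.114) and in a fit of the Col-0 libraries alone (0.0976, 0.0636, 0.0855 and 0.0719). They were also lost when control replicate 3 (0.1 to 0.134), bleomycin replicate 1 (0.106 to 0.143) or bleomycin replicate 3 (0.0598 to 0.136) of Col-0 was left out. APR2 and APR3 were lost without control replicate 1 (0.111 and 0.0971) or bleomycin replicate 2 (0.055 and 0.0794) as well, with upper-quartile scaling (0.0564 and 0.0589) and without the filter (0.0623 and 0.0526). ABCC2, APR2 and APR3 were lost without triple mutant control 1 (0.0528, 0.0656 and 0.0608) or triple mutant control 2 (0.0551, 0.0692 and 0.0619). ABCC2 and APR2 were lost without triple mutant bleomycin 1 (0.053 and 0.0637), and APR2 without triple mutant bleomycin 2 (0.0567). The triple mutant had 2 that rose, with a median of 0.28: ABCC2 from 208 ± 8.64 to 315 ± 15.8 CPM (0.60, edgeR adjusted p = 0.0142) and ABCC4 from 69.4 ± 0.89 to 104 ± 6.74 CPM (0.59, edgeR adjusted p = 0.0191). Over all genes 4.20% rose in the triple mutant, with a median of 0.03. ABCC2 was not called there without triple mutant bleomycin 1 (0.0546). ABCC4 was not called without that library (0.081), triple mutant control 2 (0.0638) or triple mutant control 3 (0.0595). By DESeq2, which called more of all genes than edgeR in both genotypes, 6 of the 16 were called in Col-0 and 5 in the triple mutant. Among them was ABCC4 in Col-0 (0.0108), which missed the threshold by edgeR (log2 0.46, adjusted p = 0.0518). So did ABCC3 (0.50, 0.0613) and APR3 (0.35, 0.0758) in the triple mutant, both called by DESeq2 (0.0187 and 0.0273).

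Of 21 regulators and targets of the TGA and SCL14 detoxification response 20 could be tested and 1 had 0 reads. In Col-0 3 rose and none fell, with a median log2 fold change of 0.30. Over all genes 4.29% rose and 2.46% fell in Col-0, with a median of 0.01. UGT73B5, a glucosyltransferase, went from 83.3 ± 11.1 to 132 ± 17.0 CPM (0.66, edgeR adjusted p = 0.00843). Its relative UGT73B4 went from 264 ± 75.1 to 463 ± 77.8 CPM (0.81, edgeR adjusted p = 0.0209), and the alkenal reductase gene AER from 2.08 ± 1.13 to 8.02 ± 4.27 CPM (1.94, edgeR adjusted p = 0.0356). In the triple mutant 2 rose, UGT73B5 (0.58, edgeR adjusted p = 0.0152) and UGT73B4 (0.78, edgeR adjusted p = 0.0211), with a median of 0.17. Over all genes 4.20% rose in the triple mutant, with a median of 0.03. Without control replicate 2 of Col-0 none of the 3 was called in Col-0 (0.0602, 0.114 and 0.156). UGT73B4 and AER were also lost when control replicate 3 (0.103 and 0.15) or bleomycin replicate 1 (0.0774 and 0.144) was left out, and AER without bleomycin replicate 3 (0.0514). A fit of the Col-0 libraries alone called neither UGT73B4 (0.0704) nor AER (0.0648), and limma did not call AER (0.0532). UGT73B5 and UGT73B4 lost their calls there without triple mutant control 2 (0.0558 and 0.0802) or control 3 (0.0533 and 0.0714), and UGT73B4 without bleomycin 1 (0.0879). The regulators themselves were not called: SCL14 was at 46.5 ± 4.99 and 44.5 ± 2.96 CPM in Col-0 (log2 -0.07), and TGA2, TGA5 and TGA6 had log2 fold changes of -0.25, 0.09 and 0.04. SCL14 in the triple mutant was at 50.2 ± 4.66 and 44.4 ± 6.35 CPM. DESeq2, which called more of all genes than edgeR in Col-0, called 6 of these genes there. Between genotypes, and in the interaction, none of the tested genes of these 4 lists was called by edgeR, DESeq2 or limma. By edgeR 3 of them had an unadjusted p under 0.05 on control medium, 0 after bleomycin and 2 in the interaction. Of all 21561 genes 1034, 226 and 377 had one in these comparisons.

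Root tissue markers are given here beside these genes. The summed level of 8 epidermis and root hair markers was 377 to 514 CPM in Col-0 control and 589.9 to 644 CPM after bleomycin, and 343 to 562 against 471 to 730.4 CPM in the triple mutant. For 9 endodermis markers the ranges were 296 to 683 and 480.2 to 905 CPM in Col-0, and 364.5 to 591 and 562 to 912 CPM in the triple mutant. For 8 xylem markers they were 94.2 to 185 and 139 to 296 CPM in Col-0, and 98.0 to 124 and 142 to 239 CPM in the triple mutant. The 7 meristem markers went from 131 to 176 CPM in Col-0 control to 117 to 143 CPM after bleomycin, and from 116 to 153 to 84.6 to 115 CPM in the triple mutant. For 8 phloem markers the ranges were 37.0 to 42.0 and 43.2 to 57.3 CPM in Col-0, without overlap, and 36.4 to 39.8 and 39.7 to 40.3 CPM in the triple mutant. Over all groups 5 root cap markers summed to 152 to 226 CPM and 8 photosynthesis genes to 17.3 to 44.6 CPM. ESB1 of the endodermis and VND6 of the xylem lists were at 0 in triple mutant control 3, and VND6 also in Col-0 control 3. Of single markers 1 epidermal gene was called higher in each genotype and none of the endodermis list. In Col-0 1 phloem gene and 1 root cap gene were called higher. Of the xylem list 1 was lower in each genotype, and of the meristem list 1 was lower in Col-0 and 2 in the triple mutant, by edgeR. Over all genes 4.29% were called higher and 2.46% lower in Col-0, and 4.20% and 3.81% in the triple mutant. The part of these tissues in the changes of the 9 genes was not tested.

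Likeness between genes was measured as the root mean square difference of their centred log2 CPM over the 12 libraries, smaller meaning more alike. GSTU22 and GSTU25 were each other's nearest member, at 0.136, although they lie in different arrays. Of all 21561 genes AT3G57020, annotated as a calcium-dependent phosphotriesterase superfamily protein, was nearest to both, at 0.104 from GSTU22 and 0.132 from GSTU25. Next to GSTU22 came AT5G22090, a FAF-like protein gene (0.124), and NAC053, a membrane-associated transcriptional activator (0.127). The third nearest to GSTU25 was AT3G13610 (0.183), which encodes the dioxygenase F6'H1 needed for fluorescent phenolics in iron uptake. GSTU7 and GSTU19 were each other's nearest member at 0.144, GSTU8 was nearest to GSTU7 (0.163), and GSTU1 to GSTU19 (0.169). Among all genes these partners ranked only 114 for GSTU7, 397 for GSTU19, 123 for GSTU8 and 964 for GSTU1. The measure is not scaled by a gene's own SD over libraries, which ran from 0.192 for GSTU19 to 1.455 for GSTU20. GSTU24 was not nearest to its neighbour GSTU25 but to GSTU1 (0.213, rank 335 among all genes). The low genes matched other genes less closely. GSTU4 was nearest to CMPG1 at 0.252, followed by AT3G04640 (0.281) and AT4G02410 (0.288). GSTU20 was nearest to AT2G07699 at 0.519, followed by AT2G07787 (0.56) and AT3G01375 (0.564). These distances describe the 12 libraries, which all genes share.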

How the data were processed

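RNA-seq libraries of root tips, 3 in each of 4 groups, were prepared with a NEBNext Ultra kit, per the labels' protocols. Salmon 0.9.1, a transcript quantifier, and CASAVA are named in the submitters' processing notes; its options, the genome build and the annotation are not stated by any source used here. Each table deposited by the authors lists, per the file headers, the effective length, TPM and estimated count of every transcript. Such estimates can be fractions of a read: those of GSTU7 were not whole, and those of the other 8 genes were whole in all 12 libraries.

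Of 88971 transcripts, 30576 of transposable elements were left out. Estimated counts were summed per locus and rounded, giving 37138 loci, of which 36899 were matched by locus code in RefSeq TAIR10.1, the source of names and sequences. Lengths matched a RefSeq transcript at 99.99% of the loci compared. Totals were 36.3 to 40.9 M reads, and the floor of 3 reads covers counting error only. Replicates differed beyond sampling noise in every group.

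One edgeR 4.0.16 quasi-likelihood model (R 4.3.3, TMM scaling, filterByExpr by group) was fitted over all 12 libraries and 21561 genes, with group as its term and Benjamini-Hochberg adjustment over all of them; a gene with an adjusted p under 0.05 is called. The common BCV (biological coefficient of variation) was 0.299. CPM values carry the TMM scaling, and levels per kilobase divide them by the effective length. The SE is the log2 fold change over the square root of F. The sum of the 9 genes was also taken from the deposited TPM values, which share a fixed total. Alternatives were DESeq2 1.42.0, limma 3.58.1 voom, other scalings and filters, the compared groups alone, length offsets, the ribosomal RNA locus left out, a replicate block and leaving out each library.

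The 9 genes and all gene lists were chosen with earlier results of these data known. Named from the other lists were called genes, at most the 4 with the largest change per list and comparison, and SCL14, TGA2, TGA5 and TGA6. The 3 nearest genes are given for the 4 members that varied most.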

Additional observations from a re-analysis of the deposited data

How the results depend on the processing

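Of the 9 genes, 5 stayed on their side of the threshold in Col-0 and 6 in the triple mutant under all 22 alternatives, and no direction of a called gene reversed. All 9 did so in both genotype comparisons and, under 21 alternatives, in the interaction. The counts over all genes moved more. In Col-0 1455 genes were called, and 2716 with DESeq2, 825 with the Col-0 libraries alone and 3437 with a replicate block. In the triple mutant 1727 were called, 2871 with DESeq2 and 3633 with the block. Between genotypes 6 were called on control medium and 24 with DESeq2; after bleomycin 6 were called, 22 with DESeq2, 10 without the filter and 10 with the block. Leaving out 1 library at a time gave 356 (without Col-0 control 2) to 2081 genes in Col-0, 510 (without triple mutant bleomycin 1) to 1853 in the triple mutant, 4 to 9 and 5 to 10 between genotypes, and 0 for the interaction. Of the 9 genes it left 2 to 5 called in Col-0, 2 to 3 in the triple mutant and 0 in the other comparisons. Replicate numbers were not taken as pairs, as the labels name no shared batch. Deviations of same-numbered libraries correlated at -0.0261 to 0.472 over 18 pairs, and those of other numbers in a lower range, -0.302 to 0.139. The main fit leaves any effect of replicate number in the spread. With the replicate block 5 of the 9 genes were called in the triple mutant; GSTU24 was called in Col-0 (adjusted p = 0.0166) and the triple mutant (0.0344), GSTU7 in Col-0 (0.00425) and GSTU8 in the triple mutant (0.0183). From CPM in place of TPM the ratio of summed levels was 1.55 in Col-0 and 1.35 in the triple mutant. GSTU20 held 0 to 59 reads in a library and GSTU4 88 to 284; the cause of the moves was not tested.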
